A study of Homo sapiens with 7 samples.

Results

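The 10 genes described here, CDK4, TSPAN31, OS9, AGAP2, METTL1, TSFM, CTDSP2, GLI1, DDIT3 and B4GALNT1, lie within 386.9 kb of the long arm of chromosome 12, in the bands 12q13-14. They were chosen by name and position, by a rule that uses no measured value, although earlier results of these data were known when it was made. All 10 are among the 57189 genes of the count table, and all 10 were among the 23124 genes with enough counts to be tested. The established cell line RH30 was derived from alveolar rhabdomyosarcoma (RMS), a tumor with skeletal muscle features. RNAseq counts were available for 7 samples, 4 of untreated wild-type cells and 3 of wild-type cells kept in medium with 5 µM BV6 for 24 h, a Smac mimetic that causes the inhibitor of apoptosis proteins cIAP1 and cIAP2 to be degraded. All 7 come from 1 cell line, and the paper describes its RH30 cells as carrying GFP, which the labels do not mention. A tag in the sample titles ties each of BV6 replicates 2, 3 and 4 to the untreated replicate of the same number, and untreated replicate 1 stands alone. What the tag stands for is not given in the sources used here, and samples with the same tag are called pairs 2, 3 and 4.

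In several sarcomas a stretch of 12q13-15 is amplified, and RH30 is known for carrying such an amplified region with CDK4 in it. CDK4 is the kinase that, with a D-type cyclin, phosphorylates RB and lets cells enter S phase. GLI1, first found as an amplified gene of glioma, is the transcription factor at the end of the Hedgehog pathway, and DDIT3 encodes CHOP, a transcription factor induced when protein folding or amino acid supply fails. The remaining genes have unrelated functions and share mainly their position. DNA copy number was not measured in these samples, so the values below are mRNA levels only.

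Counts summed to between 54070030 and 77220882 per sample, so that 3 counts, the least taken as detected, correspond to 0.0389 to 0.0557 CPM (counts scaled to a common, normalized library size). Of 14 rhabdomyosarcoma markers, 12 exceeded 1 CPM in untreated cells, among them DES, MYOD1 and MYOG, while TFAP2B and CDH3 lay below it. The 14 markers summed to 2094 to 2995 CPM without and 1404 to 2387 CPM with BV6. The leukocyte markers summed to 11.0 to 14.8 CPM without and 7.52 to 12.3 CPM with BV6, most of it from NKG7, and the fibroblast and endothelial markers summed to 61.9 to 88.8 and 47.4 to 78.7 CPM. BIRC3, which encodes cIAP2, rose with a log2 fold change of 4.86, from a mean of 2.44 ± 1.57 CPM (SD, n = 4) to one of 70.4 ± 27.4 CPM (SD, n = 3), and had an adjusted p of 0.00341 (edgeR quasi-likelihood test with Benjamini-Hochberg adjustment over all tested genes, used for every adjusted p below unless another test is named). On the first principal component of all genes, which held 35.9% of the variance, BV6 replicate 3 lay at 68.4 and the other 6 samples between -48.6 and 12.2.

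The 2 promoters below are shown because CDK4 had the highest level of the 10 genes and DDIT3 was the only one of them whose BV6 samples all lay above all untreated samples. Both are the 250 bases before the start that RefSeq gives for the gene on GRCh38.p14, written 5′ to 3′ on the strand of the gene, and both genes lie on the minus strand. RefSeq gives 2 starts for DDIT3, and where a gene has several starts only the first one listed was searched or shown. RefSeq promoters were found for 7 of the 10 genes. In the CDK4 promoter, at chr12:57752311-57752560, the capitals mark the letters CACGTG, an E-box that MYC family factors can bind, which reads the same on both strands:

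CDK4: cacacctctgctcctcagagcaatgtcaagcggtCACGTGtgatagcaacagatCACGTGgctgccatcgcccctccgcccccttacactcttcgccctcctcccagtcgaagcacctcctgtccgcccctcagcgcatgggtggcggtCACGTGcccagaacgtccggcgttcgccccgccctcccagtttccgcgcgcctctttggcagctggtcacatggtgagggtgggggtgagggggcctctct

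The CDK4 promoter held 3 of these E-boxes, beginning 216, 196 and 101 bases before the start. At least 1 E-box was present in 6.34% of the 35116 promoters of the same length, and in none of the other 6 promoters found. In the DDIT3 promoter, at chr12:57520515-57520764, the capitals mark the letters CCAAT, any 9 bases and CCAC, searched on both strands as 1 motif, with a single match beginning 100 bases before the start. These letters are close to the published ER stress response element, and they were searched after the values and the promoter of DDIT3 had been seen:

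DDIT3: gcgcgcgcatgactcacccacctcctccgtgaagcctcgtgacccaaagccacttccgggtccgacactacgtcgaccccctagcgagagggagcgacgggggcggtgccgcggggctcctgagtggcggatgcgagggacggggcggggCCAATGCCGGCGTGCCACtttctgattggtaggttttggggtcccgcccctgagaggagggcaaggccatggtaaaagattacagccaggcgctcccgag

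The ER stress element letters were present in 0.282% of the 35116 promoters and in none of the other 6. The letters TGATGNAA, to which C/EBP and ATF factors bind as pairs, were present in 3.14% of all promoters and the kappaB motif in 5.21%, and neither had a match in the 7 promoters. A match is a description of the sequence and was not tested for binding.

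In untreated RH30 cells the genes around CDK4 were among the most strongly expressed of the genome per length. Levels that are compared between genes are given as RPKM, the CPM per kb of the union of a gene's annotated exons. CDK4 had 1541 ± 141 RPKM (SD, n = 4), rank 17 of the 17943 tested genes with a known length. TSPAN31, a tetraspanin, followed with 419 ± 25.3 RPKM, CTDSP2, a small phosphatase that acts on RNA polymerase II, with 407 ± 41.5 RPKM, and OS9, a lectin that hands misfolded glycoproteins to degradation, with 329 ± 15.2 RPKM (SD, n = 4 each), ranks 77, 80 and 100. The ranges of TSPAN31 and CTDSP2 over the 4 samples overlapped, and the other steps down to TSFM did not. This order depends on the length used: per kb of the longest transcript OS9 had 622 RPKM, above TSPAN31 with 598 and CTDSP2 with 462.

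TSFM, the elongation factor Ts of mitochondria, had 124 ± 11.8 RPKM, METTL1, the tRNA m7G methyltransferase, 89.2 ± 21.7 RPKM and DDIT3 70.1 ± 20.9 RPKM (SD, n = 4 each). TSFM overlapped METTL1, and METTL1 overlapped DDIT3. AGAP2, a GTPase-activating protein of the PI3K pathway, had 35.0 ± 6.91 RPKM and overlapped GLI1, with 27.6 ± 7.35 RPKM (SD, n = 4 each). B4GALNT1, which makes the gangliosides GM2 and GD2, was lowest with 12.2 ± 2.09 RPKM (SD, n = 4), rank 3801, and still above 78.8% of the genes with a length. The median of all 14407 tested coding genes was 4.13 RPKM.

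The high levels lay at the CDK4 end of the span. All 10 genes lie between chr12:57459785 and 57846729 (GRCh38), a stretch of 386.9 kb that holds 22 tested coding genes. In the 152.9 kb from OS9 to CTDSP2, 6 of 11 coding genes (54.5%) exceeded 100 RPKM, and the median of the 11 was 115 RPKM. This window ends on OS9 and CTDSP2, which both exceed 100 RPKM themselves, so its share is partly fixed by its ends. In the GLI1 to B4GALNT1 part only 1 of 11 (9.09%), MARS, the methionyl-tRNA synthetase, did so at 150 RPKM, and the median was 27.6 RPKM. Outside the span, 5 of 65 coding genes within 3000 kb (7.69%), 12 of the other 687 coding genes of the chromosome (1.75%) and 217 of 14407 tested coding genes in all (1.51%) passed this level.

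Within the stretch from OS9 to CTDSP2 the level was uneven. Distances are counted from the outermost CDK4 start of GENCODE, at chr12:57756013, which lies upstream of the RefSeq start used for the promoter above. MARCH9, a ubiquitin ligase, starts 0.9 kb from that GENCODE start, within the CDK4 gene model, and had 115 RPKM. EEF1AKMT3, a lysine methyltransferase, had 40.5 RPKM, CYP27B1, the enzyme that activates vitamin D, 36.8 RPKM, and AVIL, an actin-binding protein, 24.0 RPKM. Beyond the GLI1 end, STAC3, a muscle protein of excitation-contraction coupling, reached 852 RPKM and SHMT2, the mitochondrial serine hydroxymethyltransferase, 445 RPKM, with starts at -504.8 and -526.4 kb from the CDK4 start. INHBC, KIF5A and NDUFA4L2 lay below 1 RPKM.

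**Figure D1:**
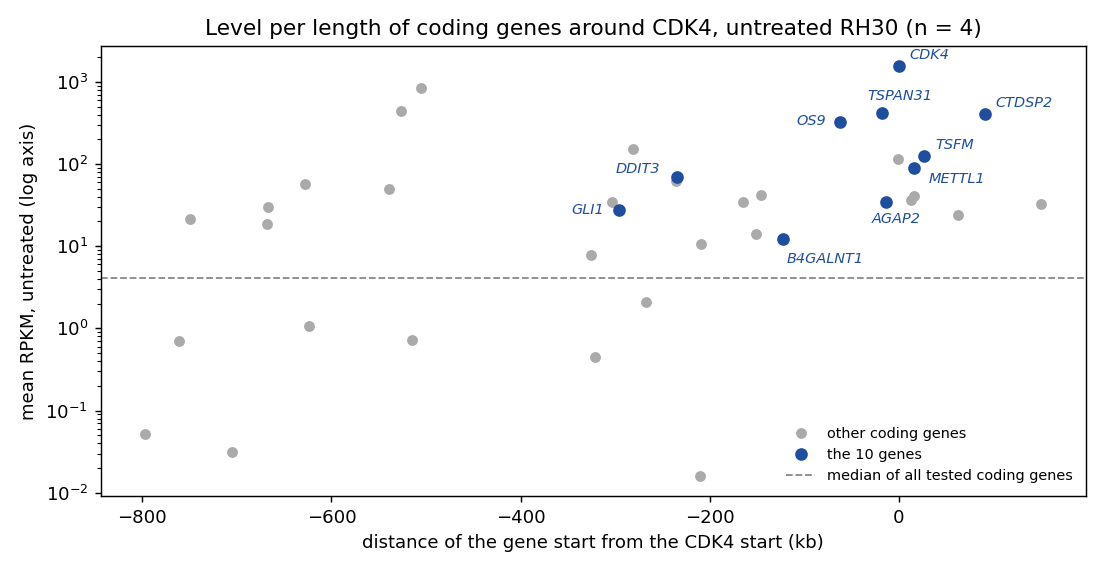
Mean level of tested coding genes in 4 untreated samples (RPKM, log axis) against distance from CDK4 (kb, negative towards GLI1). Distances run from the outermost CDK4 start of GENCODE to the start of each gene. The 10 genes are in blue, other coding genes in grey, and the median of all tested coding genes, 4.13 RPKM, is a dashed line. The genes from OS9 to CTDSP2 lie between 24.0 and 1541 RPKM, while the part from GLI1 to B4GALNT1 holds genes down to 0.016 RPKM.

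The 10 genes together took 1.21% to 1.42% of all counts of a sample, and CDK4 alone 0.420% to 0.564%. Where genes overlap, counts can be split or shared between them, and neither the use of strand nor the handling of reads that fit several genes is given in the sources used here. CDK4 and TSPAN31 lie on opposite strands and share 1369 exonic bases, 44.2% of the CDK4 and 26.1% of the TSPAN31 exons. These are shares of bases and not of counts. With CDK4 at 1541 and TSPAN31 at 419 RPKM, more than 26.1% of the TSPAN31 counts could come from CDK4, and this share was not measured. The ratio of TSPAN31 to CDK4 counts ran from 0.444 to 0.501 over the 7 samples. DDIT3 shares 355 bases (27.2% of its exons) with MARS, named MARS1 in current annotation, and 58 with MBD6, both on the opposite strand. OS9 and AGAP2 share 744 bases with each other and 1378 and 866 with the antisense RNA AGAP2-AS1, and TSPAN31 and AGAP2 share 189. AGAP2, at 35.0 RPKM against 329 for OS9, could likewise take a larger share of its counts than of its bases from OS9, which was not measured. B4GALNT1 shares 2136 bases with SLC26A10 (SLC26A10P), TSFM 303 with AVIL, METTL1 107 with CYP27B1 and 114 with EEF1AKMT3, GLI1 5 with ARHGAP9, and TSPAN31 contains the 65 bases of MIR6759. The annotation also has read-through or unnamed models over OS9, TSFM, DDIT3 and B4GALNT1, the longest sharing 2160 bases (67.3% of the exons) with TSFM, and these models were not used here.

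Between untreated and BV6-treated cells DDIT3 differed most, and the group means of CDK4 differed by less than the spread between samples. In the edgeR fit 0 of the 10 genes passed an adjusted p of 0.05, where 0.450% of all tested genes did (91 genes or 0.394% higher and 13 genes or 0.0562% lower with BV6), and 1 of the 10, DDIT3, had an unadjusted p below 0.05, against 8.39% of all tested genes. Their median log2 fold change was 0.01, against -0.01 over all tested genes. DESeq2 called DDIT3 and none of the other 9 genes, beside 1.61% of all genes, and so did edgeR when the replicate number was a block, beside 0.943%. In 1 of the 10 genes the groups did not overlap, with BV6 higher, where 8.83% of all tested genes had groups that did not (4.94% with BV6 higher and 3.89% with BV6 lower).

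**Figure D2:**
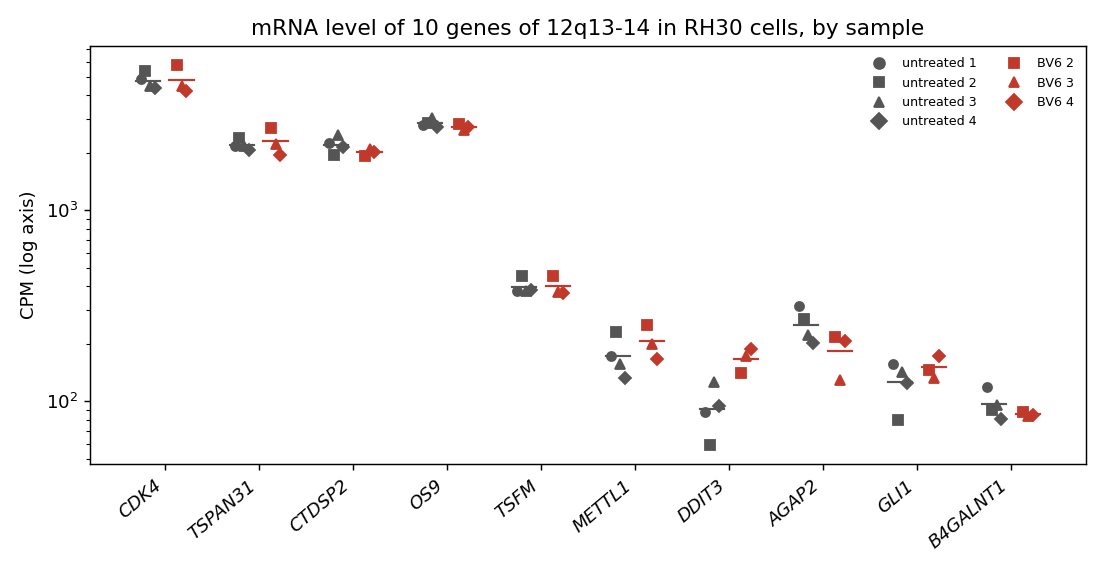
CPM (log axis) of the 10 genes in each of the 4 untreated (grey) and 3 BV6-treated samples (red), with the symbol giving the replicate number and a line at the group mean. The symbols of both groups overlap in 9 genes, and the 3 BV6 samples of DDIT3, from 141 to 189 CPM, lie above the untreated samples, from 59.1 to 126 CPM.

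CDK4 was measured at 4875, 5338, 4488 and 4374 CPM in untreated replicates 1 to 4 and at 5776, 4462 and 4219 CPM in BV6 replicates 2 to 4. The highest and the lowest of the 7 values both came from BV6 samples, and the samples of pair 2 were the highest of each group. The log2 fold change was 0.02 with an interval of -0.28 to 0.31 (95%) and an adjusted p of 0.983, so that a change of CDK4 beyond 1.24-fold up or 0.822-fold down lay outside the interval. In pairs 2, 3 and 4 the log2 ratio of BV6 to untreated CPM was 0.11, -0.01 and -0.05.

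TSPAN31 had 2165, 2389, 2169 and 2077 CPM in untreated replicates 1 to 4 and 2704, 2235 and 1952 CPM in BV6 replicates 2 to 4, with overlapping groups. Its log2 fold change was 0.06 (interval -0.22 to 0.34, adjusted p = 0.916). Across the 7 samples log2 CPM of TSPAN31 and CDK4 had a Pearson r of 0.93, as a description of samples that share pairs and of genes that share exonic bases.

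Of the cyclins, inhibitors and targets around CDK4, none of 27 tested genes passed the adjusted threshold, and their median log2 fold change was -0.04. The smallest p belonged to CDKN2C, which encodes the CDK4 inhibitor p18. It had 50.3, 44.8, 47.4 and 46.3 CPM in untreated replicates 1 to 4 and 30.8, 29.3 and 36.6 CPM in BV6 replicates 2 to 4. All BV6 samples lay below all untreated ones, as in 3.89% of all tested genes. The log2 fold change of CDKN2C was -0.55, with adjusted p = 0.117 in edgeR and 0.00419 in DESeq2. CCND3, a D-type cyclin and partner of CDK4, had a log2 fold change of -0.72 (adjusted p = 0.231 in edgeR and 0.0443 in DESeq2), and CCNE1, the cyclin of the related kinase CDK2, one of -0.38 (adjusted p = 0.307). The other D-type cyclins CCND1 and CCND2 had log2 fold changes of -0.22 and 0.01 (adjusted p = 0.840 and 0.989), and RB1, the substrate, one of 0.00 (adjusted p = 0.9995). The kinase CDK6 had a log2 fold change of 0.36 (adjusted p = 0.430). All its BV6 samples lay above all untreated ones, as in 4.94% of all tested genes. Of the 27 genes, 11 were higher and 16 lower with BV6. The E2F targets, genes of DNA replication that RB holds back, had 0 of 20 called and a median of -0.13 (-0.07 to -0.22 when 1 sample was left out). Of the 20, 18 were lower with BV6 against 12104 of 23124 tested genes, in a list chosen with earlier results of these data known. MKI67, the proliferation marker, had the smallest p of them, with a log2 fold change of -0.21 (adjusted p = 0.559), followed by TK1 with -0.45 and CDT1 with -0.55 (adjusted p = 0.674 and 0.747).

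GLI1 was measured at 157, 79.8, 142 and 125 CPM in untreated replicates 1 to 4 and at 146, 133 and 172 CPM in BV6 replicates 2 to 4. Untreated replicate 2 was the lowest sample, and the other 6 lay between 125 and 172 CPM. The log2 fold change was 0.25 (interval -0.21 to 0.72, adjusted p = 0.776) with all samples, 0.41 with the block (adjusted p = 0.403), and between 0.08 without untreated replicate 2 and 0.38 without untreated replicate 1. By pair the log2 ratio was 0.87, -0.09 and 0.46, so the sign differed between pairs.

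In the Hedgehog pathway 1 of 25 tested genes, IGF2, was called, where 0.450% of all tested genes were. The median log2 fold change of the list was -0.08. It was chosen with earlier results of these data known, so its count is a description only. IGF2, a growth factor and reported Hedgehog target, fell with a log2 fold change of -1.63 (adjusted p = 0.0215). It had 186, 117, 176 and 110 CPM in untreated replicates 1 to 4 and 60.1, 45.6 and 37.2 CPM in BV6 replicates 2 to 4. All BV6 samples of IGF2 lay below all untreated ones, as in 3.89% of all tested genes. The call of IGF2 was lost when untreated replicate 1, untreated replicate 3 or BV6 replicate 4 was left out, at adjusted p = 0.0607, 0.0733 and 0.0863. GAS1, a co-receptor, had a log2 fold change of -0.58 (adjusted p = 0.234), and HHAT, the acyltransferase of Hedgehog ligands, one of -0.30 (adjusted p = 0.508). PTCH1, the receptor and a direct target of GLI1, had 44.8 ± 6.69 CPM (SD, n = 4) without and 42.8 ± 5.33 CPM (SD, n = 3) with BV6 at a log2 difference of -0.07 (adjusted p = 0.925). SMO, the signal transducer, and SUFU, the GLI inhibitor, had log2 fold changes of -0.13 and -0.04 (adjusted p = 0.881 and 0.939). The related factor GLI2 was at 14.03 ± 4.96 CPM (SD, n = 4) without and 9.70 ± 1.88 CPM (SD, n = 3) with BV6, with adjusted p = 0.627.

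DDIT3 was measured at 87.8, 59.1, 126 and 94.3 CPM in untreated replicates 1 to 4 and at 141, 172 and 189 CPM in BV6 replicates 2 to 4. The groups did not overlap, and BV6 was higher in 3 of 3 pairs, with log2 ratios of 1.26, 0.45 and 1.00. For comparison, 4.94% of all tested genes had all BV6 samples above all untreated ones, and 15.5% were higher in all 3 pairs. The log2 fold change was 0.87 ± 0.22 (SE), with an interval of 0.38 to 1.36, or 1.82-fold. DDIT3 did not pass in the edgeR fit (adjusted p = 0.201) and passed with the replicate number as a block (log2 fold change 0.90, adjusted p = 0.0431), in DESeq2 (adjusted p = 0.0301) and without a filter on low counts (adjusted p = 0.0209). Leaving out any of the 7 samples gave adjusted p-values from 0.121 to 0.509 in the edgeR fit. Its call therefore depended on the test, while the log2 fold change stayed between 0.70 and 1.06. DDIT3 shares 355 exonic bases with MARS, which had 150 RPKM in untreated cells against 70.1 for DDIT3. Part of the level of DDIT3 and of its change could be counts of MARS, which was not tested.

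**Figure D3:**
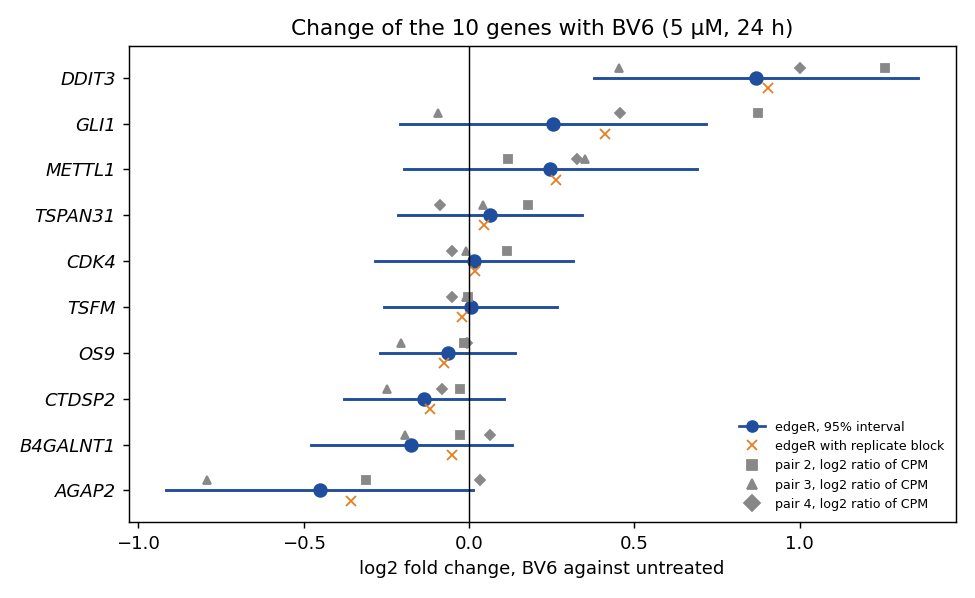
Log2 fold change of BV6 against untreated for the 10 genes, with the edgeR estimate and its 95% interval (blue), the estimate with the replicate number as a block (orange cross) and the log2 ratio of CPM in each of the 3 pairs (grey symbols). The interval of DDIT3, 0.38 to 1.36, is the only one that does not include 0.

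DDIT3 belongs to the integrated stress response, in which phosphorylated eIF2α lets the factor ATF4 be translated and ATF4 and CHOP switch on genes of amino acid supply. Of 31 tested genes of this response, DDIT3 not among them, 2 rose and none fell, the median log2 fold change was 0.27, and 27 of 31 were higher with BV6. Over all tested genes 0.450% were called, the median was -0.01, and 11020 of 23124 were higher. In 25.8% of the 31 genes the groups did not overlap, against 8.83% of all tested genes. Earlier results of these data were known when the list was chosen, so these shares are a description only. Among listed genes tied to ER stress, log2 fold changes were -0.105 for HSPA5, 0.055 for HERPUD1, 0.106 for DNAJB9 and 0.209 for XBP1. Their adjusted p-values were 0.885, 0.906, 0.892 and 0.620. PPP1R15A, the phosphatase subunit that reverses eIF2α phosphorylation, averaged 48.7 ± 3.01 CPM without (SD, n = 4) and 90.6 ± 18.9 CPM with BV6 (SD, n = 3) and rose with a log2 fold change of 0.90 (adjusted p = 0.0290, with the replicate number as a block 0.0238). ASNS, asparagine synthetase, averaged 14.1 ± 2.19 CPM without (SD, n = 4) and 31.7 ± 7.49 CPM with BV6 (SD, n = 3). It rose with a log2 fold change of 1.16 (adjusted p = 0.0364) and missed the threshold with the block (adjusted p = 0.0618).

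Neither call held in every smaller set of samples. When 1 sample was left out, PPP1R15A remained below the threshold only without BV6 replicate 3 (adjusted p = 0.0178), and ASNS only without BV6 replicate 4 (adjusted p = 0.0249), while leaving out any of the other samples gave adjusted p-values up to 0.106 and 0.142. In those fits the log2 fold change was 0.72 to 0.96 for PPP1R15A and 1.04 to 1.26 for ASNS. TRIB3, a pseudokinase induced by CHOP, had a log2 fold change of 1.24 and was called with the block (adjusted p = 0.0374) and in DESeq2 (adjusted p = 0.0139) but not in edgeR without the block (adjusted p = 0.206). CEBPG, a dimer partner of ATF4, had 0.58 (adjusted p = 0.153 in edgeR and 0.0324 in DESeq2). ATF4 itself had 0.36 (adjusted p = 0.510), and CHAC1, a glutathione-degrading enzyme often used as a marker of this response, lay at 0.257 ± 0.0789 CPM (SD, n = 4) without and 0.321 ± 0.137 CPM (SD, n = 3) with BV6, with adjusted p = 0.872. The E-box, TGATGNAA, kappaB and ER stress element letters were also searched in the promoters of PPP1R15A, ASNS, TRIB3, CEBPG and MARS. ASNS held 1 match of TGATGNAA in the same 250 bases. There was no other match, so none of these promoters held the ER stress element letters.

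Near DDIT3, the inhibin subunit gene INHBE had 116, 50.6, 118 and 130 CPM in untreated replicates 1 to 4 and 255, 219 and 201 CPM in BV6 replicates 2 to 4, and the groups did not overlap. Its log2 fold change was 1.12, with adjusted p = 0.176 in edgeR, 0.122 with the block and 0.0123 in DESeq2. Without untreated replicate 2, its lowest sample, INHBE passed at 0.89 (adjusted p = 0.0279). MARS had a log2 fold change of 0.41 (adjusted p = 0.281, with the block 0.0979), also without overlap of the groups. BV6 was the higher group for INHBE and MARS, and 4.94% of all tested genes had all BV6 samples above all untreated ones. The bases that MARS and DDIT3 share can carry counts of either gene. They weigh more on DDIT3, with a mean of 91.7 CPM in untreated cells against 1057 CPM for MARS. MBD6, which shares 58 bases with DDIT3, had a log2 fold change of 0.10 (adjusted p = 0.905).

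**Figure D4:**
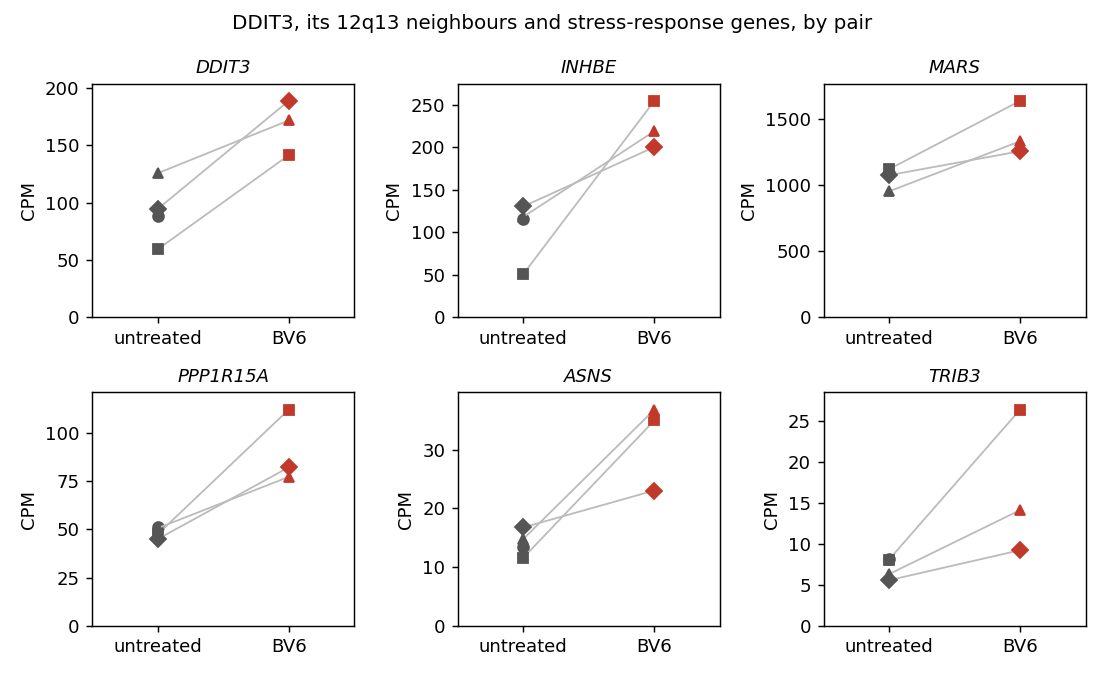
CPM of DDIT3, its neighbours INHBE and MARS, and the stress response genes PPP1R15A, ASNS and TRIB3 in untreated and BV6-treated samples, with lines joining samples of the same pair and symbols giving the replicate number. Each gene was higher with BV6 in all 3 pairs, as were 15.5% of all tested genes, and untreated replicate 1 (circle) has no partner.

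Among the 27 tested neighbours of 12q13-14 listed by hand, 0 passed the adjusted threshold in edgeR. The groups did not overlap in 11.1% of these neighbours, against 8.83% of all tested genes, and the neighbours' median log2 fold change was 0.05. STAC3 had the third smallest p of them, with -0.44 (adjusted p = 0.559, with the block 0.0645). Of all 22 coding genes in the span, the 10 genes included, none was called without the block and 1, DDIT3, with it. Further along the chromosome, in 12q14-15, 0 of 27 genes were called and the median was 0.14. There XPOT, the tRNA exporter, had 0.44 (adjusted p = 0.294), FRS2, the adaptor of FGF receptors, 0.26 (adjusted p = 0.560), and TBK1, a kinase of innate immunity, 0.24 (adjusted p = 0.677). MDM2, the p53 inhibitor that is amplified together with CDK4 in other sarcomas, had 74.4 ± 5.88 CPM (SD, n = 4) without and 82.8 ± 7.33 CPM (SD, n = 3) with BV6 (adjusted p = 0.748).

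OS9 had 2786, 2861, 3041 and 2741 CPM in untreated replicates 1 to 4 and 2834, 2638 and 2728 CPM in BV6 replicates 2 to 4, so that its groups overlapped. Its log2 fold change was -0.06 (interval -0.27 to 0.14, adjusted p = 0.870). BV6 was lower in 3 of 3 pairs, as were 17.8% of all tested genes, with log2 ratios of -0.01, -0.21 and -0.01. The genes of ER-associated degradation, in which OS9 works, had 0 of 24 called and a median of -0.01. DERL3, EDEM3 and CANX had the smallest p of them, with log2 fold changes of -0.86, 0.22 and 0.18 and adjusted p-values of 0.529, 0.619 and 0.697.

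AGAP2 had the largest difference towards lower values. It was measured at 315, 270, 223 and 203 CPM in untreated replicates 1 to 4 and at 217, 129 and 208 CPM in BV6 replicates 2 to 4. BV6 replicate 3, the sample that stood apart on the first principal component, was the lowest, and the groups overlapped. The log2 fold change was -0.45 (interval -0.92 to 0.01, adjusted p = 0.607) with all samples and -0.36 with the block (adjusted p = 0.413). It lay between -0.24 without BV6 replicate 3 and -0.58 without BV6 replicate 2. In pairs 2, 3 and 4 the log2 ratio was -0.31, -0.79 and 0.03, so the sign differed between pairs. AGAP2-AS1, whose exons overlap those of AGAP2 on the other strand, had 211, 186, 118 and 114 CPM in untreated and 128, 46.5 and 106 CPM in BV6 samples, with the same lowest sample and a log2 fold change of -0.75 (adjusted p = 0.601).

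CTDSP2 had 2253, 1957, 2495 and 2135 CPM in untreated replicates 1 to 4 and 1919, 2102 and 2017 CPM in BV6 replicates 2 to 4. BV6 was lower in 3 of 3 pairs, as were 17.8% of all tested genes, with a log2 fold change of -0.14 (interval -0.38 to 0.11, adjusted p = 0.773). Among 16 related phosphatases, AGAP proteins and tetraspanins 0 were called, and the median was -0.16. CD63, a tetraspanin of lysosomes and exosomes, had 332 ± 30.7 CPM (SD, n = 4) without and 458 ± 17.4 CPM (SD, n = 3) with BV6. All BV6 samples of CD63 lay above all untreated ones, as in 4.94% of all tested genes. Its log2 fold change was 0.47 (adjusted p = 0.129 in edgeR and 0.0221 in DESeq2). TSPAN9 had -0.43 and REST, the factor that recruits the small phosphatases to neuronal genes, 0.27 (adjusted p = 0.619 and 0.610).

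METTL1 had 173, 232, 157 and 133 CPM in untreated replicates 1 to 4 and 252, 200 and 167 CPM in BV6 replicates 2 to 4. Each BV6 sample lay above its untreated partner, as in 15.5% of all tested genes, with log2 ratios of 0.12, 0.35 and 0.33. The groups as a whole overlapped. The log2 fold change was 0.25 (interval -0.20 to 0.69, adjusted p = 0.775, with the block 0.292) with all samples, and lay between 0.09 without BV6 replicate 2 and 0.41 without untreated replicate 2. TSFM had 378, 456, 378 and 385 CPM in untreated replicates 1 to 4 and 455, 376 and 371 CPM in BV6 replicates 2 to 4. Both samples of pair 2 were higher than the other 5, and the log2 fold change was 0.00 (interval -0.26 to 0.27, adjusted p = 0.994). By pair, BV6 was lower in 3 of 3, as in 17.8% of all tested genes, with log2 ratios of -0.004, -0.009 and -0.052. Of 14 genes of tRNA methylation and mitochondrial translation 0 were called, with a median of 0.11, and TRMT5, GFM2 and MTIF2 had log2 fold changes of 0.18, 0.18 and 0.19 (adjusted p = 0.732, 0.736 and 0.757).

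B4GALNT1 had 119, 89.6, 95.9 and 80.8 CPM in untreated replicates 1 to 4 and 88.0, 83.9 and 84.3 CPM in BV6 replicates 2 to 4. Untreated replicate 1 was the highest, and the log2 fold change was -0.18 (interval -0.48 to 0.13, adjusted p = 0.768) with all samples, -0.05 without that sample and -0.25 without untreated replicate 4. SLC26A10, which overlaps it, had -0.15 (adjusted p = 0.827). In ganglioside synthesis 0 of 19 genes were called, with a median of 0.14. ST3GAL5, the GM3 synthase that acts 1 step earlier in the pathway, had 45.2, 28.3, 49.7 and 49.3 CPM in untreated replicates 1 to 4 and 49.6, 81.6 and 80.4 CPM in BV6 replicates 2 to 4, and was called with the replicate number as a block (log2 fold change 0.74, adjusted p = 0.0141) but not without it (0.71, adjusted p = 0.376). ST8SIA5, a sialyltransferase of complex gangliosides, had -0.40 (adjusted p = 0.349), and UGCG, which makes the first glucosylceramide, 0.34 (adjusted p = 0.531).

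Across the 7 samples the 10 genes did not vary as a block. The highest Pearson r of log2 CPM joined CDK4 with TSPAN31 (0.93) and CDK4 with TSFM (0.91), and the lowest joined AGAP2 with DDIT3 (-0.67) and CTDSP2 with TSFM and METTL1 (-0.64 for each). Of all tested genes, EWSR1 on chromosome 22, an RNA-binding protein, had the pattern most like that of CDK4 (r = 0.996), from 300 to 359 CPM in untreated and 288 to 384 CPM in BV6 samples, followed by AL121753.1 (0.996) and AC006441.3 (0.991). The 3 genes most like GLI1, PRR36 (0.980), LYPD3 (0.965) and RPS20P4 (0.963), all had means under 1 CPM. These are the highest of 23124 correlations over 7 samples, 6 of them in pairs, and no test was made of them.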

How the data were processed

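RNA of RH30 cells was measured in 7 samples, 4 untreated and 3 with BV6, grouped and paired by the sample labels. The authors deposited raw counts per gene, without normalization. They had prepared stranded mRNA libraries, aligned the paired reads to GRCh38 with STAR 2.6.1d (version from the submitters' processing notes) and counted them on merged Ensembl isoforms. The paper calls the replicates biological, and whether they were separate cultures is not given in the sources used here, so p-values measure the spread between these samples.

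Genes were tested with edgeR 4.0.16 in R 4.3.3 (glmQLFit and glmQLFTest on the condition, TMM, filterByExpr at its minimum count of 10) with Benjamini-Hochberg adjustment over 23124 genes and a threshold of 0.05. The F statistics gave the standard errors. Alternatives were the Wald test of DESeq2 1.42.0, RLE factors, 2 other filters, the replicate number as a block and leaving out each sample. Deviations of same-numbered samples correlated at 0.515, 0.322 and 0.197 for pairs 2, 3 and 4 when means were taken over paired samples. With untreated replicate 1 in the mean the values were 0.462, 0.438 and 0.0847, so the link was weak in pair 4. The block and the ratios by pair treat these samples as paired, and the main edgeR fit does not. The pairs came from the sample labels, and the first set of correlations, used to judge them, was chosen after the blocked calls had been seen. The 3-count floor covers counting error only.

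GENCODE release 44 (GRCh38) gave positions, exon lengths and overlaps for 37189 of 57189 genes, 862 of them through an older symbol, and RefSeq gave the promoters. The fits were tested first on simulated data, in which 200 genes were shifted by 2 on the log2 scale. Of these, edgeR recovered 197 beside 9 false calls, and 196 beside 12 false calls with the replicate number as a block. DESeq2 recovered 197 beside 45 false calls, the most of the fits tested, so a gene called by DESeq2 alone is less certain. Correlations used log2 CPM with a prior count of 2. The 10 genes and all gene lists were chosen with earlier results of these data known. The text names the 10 genes, the called genes and the 3 of smallest p in each list, genes sharing exonic bases with the 10, the 3 genes most like CDK4 and GLI1, and BIRC3 as a check of treatment. CCND1, CCND2, CDK6, RB1, PTCH1, SMO, SUFU, GLI2, MDM2, ATF4 and CHAC1 were named after their values were seen. So were TRIB3, HSPA5, HERPUD1, DNAJB9, XBP1, SHMT2, MARCH9, INHBC, KIF5A and NDUFA4L2.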

Additional observations from a re-analysis of the deposited data

Results flagged for a closer look

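In untreated cells TSFM had 456 CPM in replicate 2 and 378 to 385 CPM in the other 3 samples. The gap from replicate 2 to its nearest neighbour was 0.912 of the whole range, above the critical value (95%) that Dixon's test gives for 4 samples. Chance alone gives such a gap in about 1 of 20 groups, and 10 genes were examined. The BV6 sample of the same pair had 455 CPM.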

How the results depend on the processing

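No alternative reversed the direction of IGF2, PPP1R15A or ASNS. The number of genes called higher and lower, 91 and 13, was 242 and 159 with DESeq2, 169 and 73 without a filter on low counts and 150 and 68 with the replicate block, and ran from 36 to 80 and from 2 to 10 when 1 sample was left out. Of the 10 genes 0 were called, against 1 (DDIT3, log2 fold change 0.853, 0.861 and 0.903) under the same 3 alternatives. Log2 fold changes near 0 changed sign: CDK4 was at -0.002 with DESeq2 and between -0.127 and 0.099 when 1 sample was left out, TSPAN31 between -0.062 and 0.165, and TSFM at -0.012 with DESeq2, -0.009 with RLE factors, -0.005 without a filter, -0.022 with the replicate block and between -0.087 and 0.070 when 1 sample was left out.

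With DESeq2, called genes numbered 1 of 27 listed 12q13-14 neighbours, 2 of 28 CDK4 partners and 6 of 32 integrated stress response genes. DESeq2 also called 1 of the 16 phosphatases, AGAP proteins and tetraspanins. Without a filter, 1 neighbour and 4 stress response genes were called. With the replicate block, 3 stress response genes and 1 of 19 genes of ganglioside synthesis were called. When 1 sample was left out, called genes numbered 0 to 1 among the neighbours, 0 to 2 in the stress response and 0 to 1 in the Hedgehog pathway. Over all genes, 1.61% were called with DESeq2 and 0.943% with the replicate block, and the share without a filter was not computed. Leaving out 1 sample also moved the median log2 fold change of the Hedgehog list (-0.192 to -0.001), the stress response (0.188 to 0.271), ER-associated degradation (-0.027 to 0.047, with a change of sign), the phosphatase list (-0.193 to -0.043), the E2F targets (-0.221 to -0.074), ganglioside synthesis (0.076 to 0.201), the 12q13-14 neighbours (0.004 to 0.071), the 12q14-15 genes (0.087 to 0.186), CDK4 partners (-0.057 to -0.002) and mitochondrial translation (0.053 to 0.182). The replicate block changed the calls of DDIT3, TRIB3, ST3GAL5 and ASNS and of no other gene named with an adjusted p. With the longest transcript as length, RPKM was 2557 for CDK4, 598 for TSPAN31, 622 for OS9, 46.5 for AGAP2, 126 for METTL1, 157 for TSFM, 462 for CTDSP2 and 17.3 for B4GALNT1, which puts OS9 above TSPAN31 and CTDSP2. In all, 13 log2 fold changes, of CDK4, TSPAN31 and TSFM, changed sign. The causes were not tested. With 3 and 4 samples a group, changes smaller than the intervals given could not be told from 0.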
